A study of Rattus norvegicus with 4 samples.

Results

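The receptors described here are the orphan and adhesion G protein-coupled receptors of the rat carotid body (CB), which lies where the carotid artery divides and holds the glomus cells that respond to low oxygen in arterial blood. They were chosen by symbol: every entry of the gene table named Gpr followed by a number, or named Adgr followed by a subfamily letter and a number, was taken, except Adgre1, which is used as a macrophage marker. That gave 97 entries of 32883 in the table, 25 of them adhesion receptors and 72 numbered receptors, and 48 of the 97 had at least 1 CPM (library counts scaled to a common total) in 2 libraries and were tested. Each age was represented by 2 libraries of CBs from untreated Sprague Dawley rats, neonates at day 5 and rats at day 21, the weaning age, which the study calls adults. One library held CBs pooled from 6 pups or from 3 older rats according to the series' design text, the study's methods give other pool sizes and another number of replicates, and males and females were pooled. The comparison asks how the receptor complement differed across the weeks in which the response of the CB to low oxygen matures.

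G protein-coupled receptors cross the membrane 7 times and pass a signal from outside the cell to G proteins inside it. The numbered Gpr symbols were given to receptors found by sequence before a ligand was known. Some now have one, such as protons for Gpr4 or an oxysterol for Gpr183, and others, such as Gpr107 and Gpr155, work in inner membranes, so that not every numbered gene is an orphan. Adhesion receptors carry long extracellular domains that bind matrix or proteins of neighbouring cells, and most are cut in the extracellular part into 2 pieces that stay joined.

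Library totals ran from 36286191 to 39476110 estimated counts. At these totals 3 counts, taken as the floor of detection, were worth between 0.0734 and 0.0843 CPM, a limit that covers counting error only. Glomus cell markers were abundant at both ages, with Th, the rate-limiting enzyme of dopamine synthesis, between 835 and 1403 CPM. The neonatal libraries also held parathyroid transcripts. Pth stood at 1769 CPM in the first neonatal library and 208 CPM in the second, with no count in either adult library. The first neonatal library held less myelin RNA than the other libraries, the sum of 6 myelin markers being 848 CPM there against 1652 to 2142 CPM elsewhere. Nothing in the labels says how litters were divided among libraries, so the p-values measure the spread between these pools. The tissue was sequenced in bulk, so fewer cells of a type and less RNA per cell cannot be told apart.

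Most of the receptors that differed were lower in neonates. Of the 48 tested, 12 were called lower and 2 higher in neonates by edgeR's quasi-likelihood test, a call meaning a difference of 2-fold or more whose p, adjusted by Benjamini-Hochberg, was under 0.05. Of all 13838 genes tested, 13.2% were called lower and 7.68% higher, 20.8% together. The 12 were Gpr158, Gpr63, Gpr139, Gpr146, Adgrg7, Gpr161, Gpr176, Gpr183, Gpr137b, Gpr182, Adgra2 and Adgrl4, and the 2 were Adgrg2 and Adgrb2. With no minimum fold change, 25 were lower, 6 were higher and 17 did not pass, against 31.1% lower, 31.2% higher and 62.3% in either direction over all genes. The median log2 fold change, neonate over adult, was -0.52 for the 48 and -0.0029 for all genes tested. Markers of adipocytes and fibroblasts were lower in neonates as well. All 3 adipocyte markers tested were called lower, with sums over the 4 listed of 5.22 and 6.41 CPM in neonates and 24.3 and 35.7 CPM in adults, and 3 of 4 fibroblast markers were lower with no minimum fold change, with sums of 6185 and 7509 CPM against 8264 and 8673 CPM. Glomus cell markers went both ways. Of 10, 1 was called higher and 1 lower in neonates. With no minimum fold change 5 were higher and 3 lower, with a median of 0.24. The part of these 3 cell types in the receptor values was not tested.

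Some of that count depends on how receptors entered the test. Gpr158, Gpr183, Gpr34, Gpr161, Gpr63 and Adgrg7 reached 1 CPM in 2 libraries only through the adults, and 5 of these 6 were called lower. The other 42 reached 1 CPM in at least 1 library of each age, and among them 7 were called lower and 2 higher, with a median of -0.41. Genes that reached 1 CPM at both ages were called lower in 10.9% and higher in 6.93% of 13213 cases. With no minimum fold change, 20 of the 42 were lower and 6 higher. Over all 48 receptors, the values of the 2 ages did not overlap for 31 lower and 11 higher in neonates, and 6 overlapped. The 31 include the 6 that passed only through the adults, and among the 42 the numbers separate were 25 lower and 11 higher. Of all genes tested 41.7% and 41.3% were separate in these directions, 83.0% in all. Without adult replicate 1 or 2, the 6 receptors that passed only through the adults were no longer tested, which left 42. The median of the 42 was -0.50 without adult replicate 1 and -0.40 without adult replicate 2, beside 0.00 and -0.00 over all genes tested. Fewer receptors, and fewer of all genes, were called lower than with all libraries. Gpr182, and without adult replicate 2 also Adgra2, lost their calls. With the same 48 receptors kept, the medians were -0.59 and -0.49, and again fewer were called lower.

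**Figure D1:**
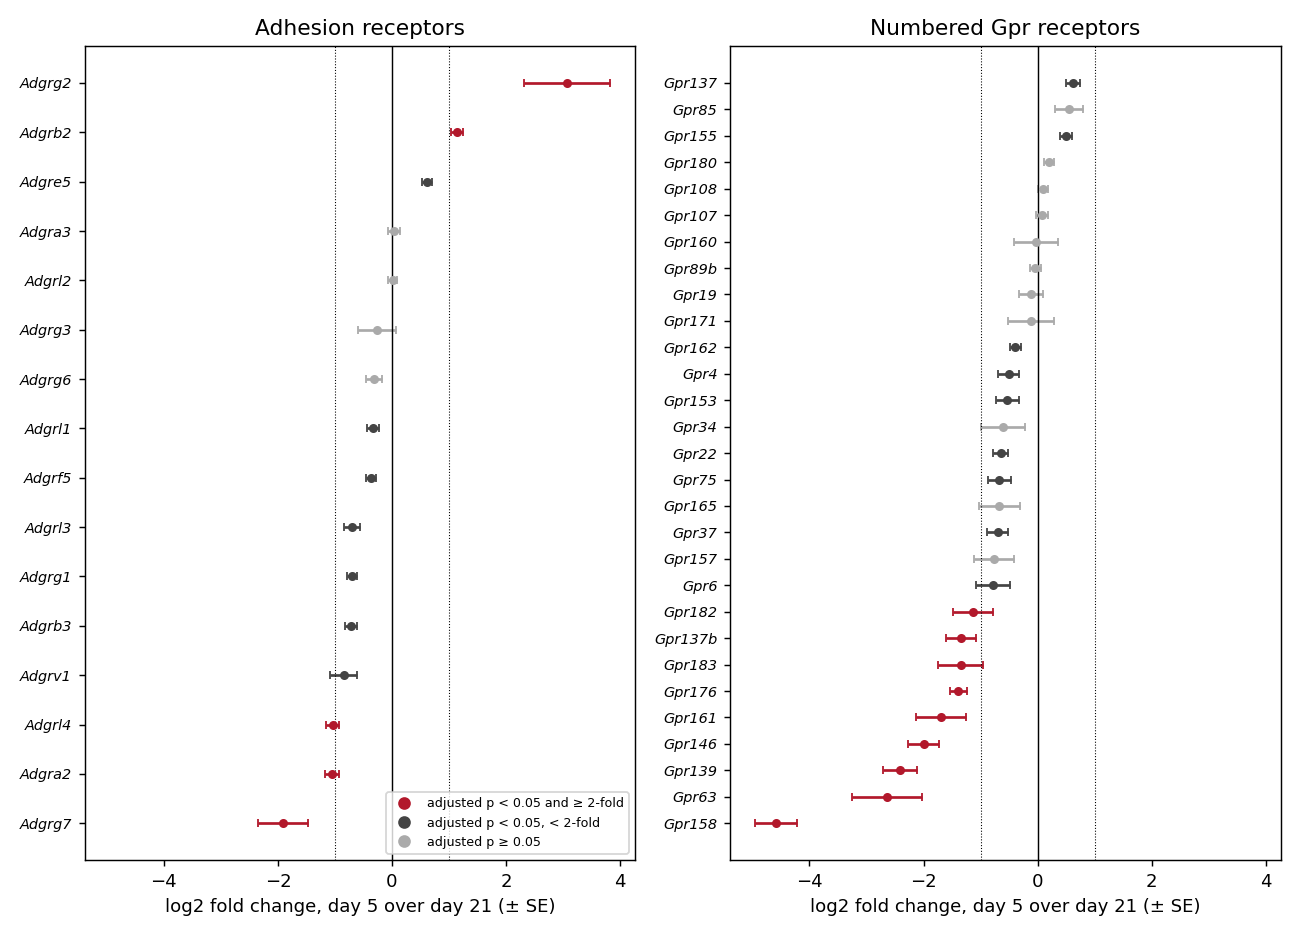
Log2 fold change, day 5 over day 21, with its standard error for adhesion and numbered receptors tested, without those not reported here (x axis, log2 units; 1 receptor per line); dotted lines mark a 2-fold difference and red points are the called receptors. Most called receptors lie left of zero, from Adgrl4 at -1.04 to Gpr158 at -4.58, while Adgrg2 and Adgrb2 lie right of it and the bar of Adgrg2 is the widest.

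Reads of the family were concentrated in few receptors. The 10 with the most counts held between 70.0% and 72.1% of all counts of the family in each library. Those 10 were Adgrf5, Gpr22, Adgrl1, Adgre5, Adgrl4, Adgrl2, Gpr107, Gpr108, Adgrg1 and Gpr180. Transcript length was not corrected for, so this order is one of reads and not of molecules. Summed over the class, adhesion receptors took 778 and 805 CPM in neonates and 902 and 1005 CPM in adults. Numbered receptors took 488 and 529 CPM in neonates and 635 and 611 CPM in adults. Both sums were higher in each adult library than in either neonatal library.

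**Figure D2:**
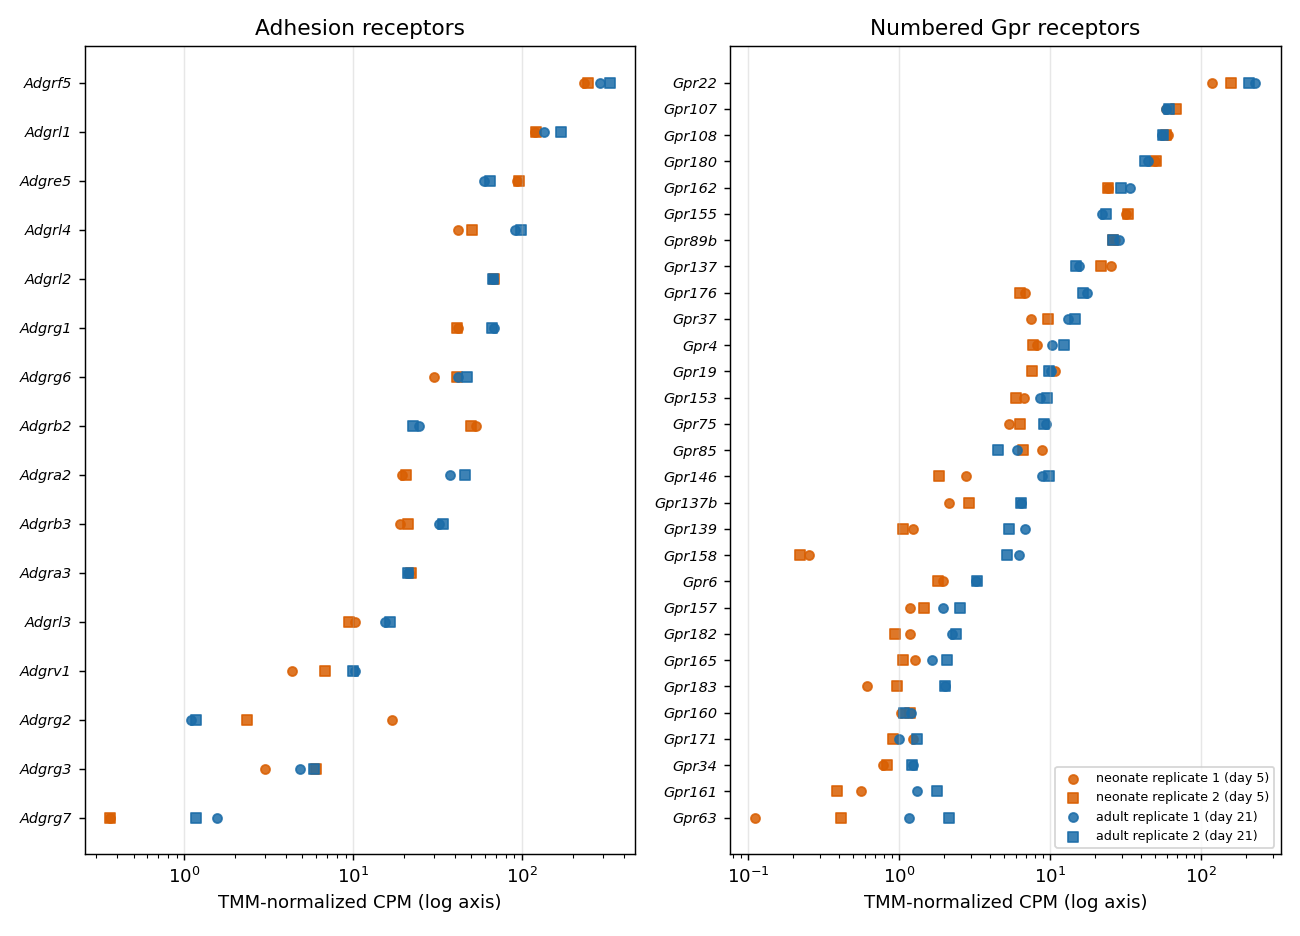
TMM-normalized CPM (log x axis) of the receptors tested, without those not reported here, in each of the 4 libraries, adhesion receptors on the left and numbered receptors on the right, ordered by mean; orange marks are neonates and blue marks adults, circles replicate 1 and squares replicate 2. Replicates of 1 age lie close together for most receptors, and Gpr158, Gpr63 and Adgrg2 show the widest gaps.

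Receptors known from the nervous system held the steepest difference. Gpr158, a receptor for glycine that is abundant in brain and binds the complex of Rgs7 with the G protein subunit Gnb5, was counted 9 and 8 times in the neonatal libraries and 257 and 207 times in the adult libraries. That made 0.253 and 0.222 CPM in neonates and 6.29 and 5.20 CPM in adults. Both neonatal values lay above the floor and far below both adult values. The log2 fold change was -4.58 ± 0.37 (SE, n = 2 per age), a 23.9-fold difference, with an adjusted p of 1.6e-05 by edgeR's quasi-likelihood test. In the GRCr8 annotation Gpr158 lies inside an entry named Rps8l1, and how reads were divided between them was not tested. Its partner Gnb5 was also lower in neonates, at 8.23 and 5.80 CPM against 23.1 and 19.6 CPM (log2 fold change -1.60 ± 0.19, adjusted p = 0.00011).

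Gpr139, which responds to aromatic amino acids and is best known from the habenula, was at 1.24 and 1.06 CPM in neonates and at 6.83 and 5.38 CPM in adults. The ages were well apart, with a log2 fold change of -2.41 ± 0.30 and an adjusted p of 0.00014. Gpr176, an orphan of the brain's circadian clock, was at 6.83 and 6.33 CPM in neonates and at 17.8 and 16.7 CPM in adults. Its replicates were nearly equal at each age and its log2 fold change was -1.39 ± 0.15 (adjusted p = 8.2e-05). Gpr63 was at 0.112 and 0.416 CPM in neonates and at 1.17 and 2.16 CPM in adults. The groups were separate but the replicates differed at both ages, and the log2 fold change of -2.64 ± 0.61 (adjusted p = 0.0048) ran from -1.98 without neonate replicate 1 to -3.84 without neonate replicate 2.

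Gpr22, an orphan best known from heart and brain, took the most reads of any numbered receptor. Its level was 119 and 160 CPM in neonates and 231 and 208 CPM in adults, both adult values being the higher. The difference passed the test without reaching 2-fold (log2 fold change -0.65 ± 0.13, adjusted p = 0.0021). In the RefSeq annotation of the GRCr8 assembly Gpr22 lies inside Cog5, a gene for a subunit of a Golgi tethering complex. Cog5 had a similar difference, from 18.0 and 17.2 CPM in neonates to 29.6 and 27.2 CPM in adults (log2 fold change -0.69 ± 0.11, adjusted p = 0.00051). How reads were divided between the overlapping genes was not tested, and the sources used here do not give the strand setting.

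Across the 24 entries in the list of nervous system receptors, 10 were tested. Of these 10, 4 were called lower, 8 were lower with no minimum fold change, and none was higher, beside 13.2% called lower and 31.1% lower over all genes tested. Of the 4 called, Gpr158 and Gpr63 passed the filter only through the adults. The median log2 fold change was -0.66. Gpr75 (-0.67 ± 0.20), Gpr162 (-0.39 ± 0.10) and Gpr153 (-0.53 ± 0.20) were among the 8, with adjusted p of 0.018, 0.0097 and 0.044. Gpr19 (-0.12 ± 0.21, adjusted p = 0.63) did not pass. Beside this, most markers of neurons moved the other way. Of 7, 3 were called higher in neonates, such as Tubb3, and none lower, beside 7.68% and 13.2% over all genes tested. With no minimum fold change 5 were higher and none lower, beside 31.2% and 31.1%. Snap25 (-0.11 ± 0.090, adjusted p = 0.33) and Isl1 (-0.18 ± 0.10, adjusted p = 0.13) leaned lower without passing. The summed level of the 7 was 2486 and 2275 CPM in neonates and 1840 and 1521 CPM in adults. The part of neuron content in the receptor values was not tested.

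For 37 of the 48 receptors RefSeq holds a promoter window of the GRCr8 assembly, from 250 bases before to 50 bases after the gene's start. The windows of Gpr158, Adgrg2, Gpr63 and Gpr146 are shown because these are the called receptors with the largest fold changes that have one. Each is written 5′ to 3′ along its gene, with the motifs searched for in capitals. The Gpr158 window is chr17:88742573-88742872 on the plus strand, that of Gpr63 chr5:43477780-43478079 also on the plus strand, and those of Adgrg2 chrX:38179786-38180085 and Gpr146 chr12:20380962-20381261 on the minus strand.
Gpr158: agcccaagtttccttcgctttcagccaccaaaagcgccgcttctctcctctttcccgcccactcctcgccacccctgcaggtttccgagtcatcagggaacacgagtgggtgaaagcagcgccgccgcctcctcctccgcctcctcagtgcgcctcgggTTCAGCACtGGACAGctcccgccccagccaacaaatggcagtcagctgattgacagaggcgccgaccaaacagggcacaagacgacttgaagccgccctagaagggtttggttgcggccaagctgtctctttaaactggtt
Adgrg2: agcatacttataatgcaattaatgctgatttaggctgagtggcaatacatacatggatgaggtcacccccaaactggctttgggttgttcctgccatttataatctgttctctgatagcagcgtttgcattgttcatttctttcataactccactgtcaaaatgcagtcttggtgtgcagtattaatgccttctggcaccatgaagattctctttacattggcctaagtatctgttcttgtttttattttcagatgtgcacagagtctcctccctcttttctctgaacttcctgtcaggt
Gpr63: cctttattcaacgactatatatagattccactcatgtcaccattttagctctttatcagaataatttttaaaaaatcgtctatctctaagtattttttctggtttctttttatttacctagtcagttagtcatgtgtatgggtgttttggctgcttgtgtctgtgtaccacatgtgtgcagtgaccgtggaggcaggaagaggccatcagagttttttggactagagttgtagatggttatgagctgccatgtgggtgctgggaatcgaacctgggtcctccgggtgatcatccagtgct
Gpr146: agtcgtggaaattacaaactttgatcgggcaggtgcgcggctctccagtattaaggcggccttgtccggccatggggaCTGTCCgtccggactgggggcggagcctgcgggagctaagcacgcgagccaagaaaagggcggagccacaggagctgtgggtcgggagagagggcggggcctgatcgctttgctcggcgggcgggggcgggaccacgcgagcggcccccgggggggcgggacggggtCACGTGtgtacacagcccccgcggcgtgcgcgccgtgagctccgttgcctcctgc

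The capitals in Gpr158 are TTCAGCAC at position -91 and GGACAG at position -82, where the first base of the gene is 0. These are the left and right parts of the RE1 element bound by the REST repressor, which keeps neuronal genes off in other cells, although they stand closer together here than in its usual form. They were searched for after this window had been read. TTCAGCAC is in 1.05% and GGACAG in 21.8% of all 27457 windows, on either strand, and in 1 and 15 of the 37. Both parts on the same strand with starts at most 14 bases apart were found in 9 windows of 27457, of which that of Gpr158 was the only 1 among the 37. Gpr146 has CACGTG from position -5 on, reaching the first base of the gene. CACGTG holds ACGTG, the core of a hypoxia response element, on both strands. Gpr146 also has CTGTCC, the complement of GGACAG, at -172. No searched motif is in the Adgrg2 and Gpr63 windows. ACGTG was in 8 of the 37 windows (21.6%) and in 19.7% of all windows, and TGACG, part of the cAMP response element, in 10 (27.0%) and in 22.0%. The whole cAMP element TGACGTCA, which contains TGACG, was in 1 of the 37, that of Gpr6, and in 1.91% of all. TATAAA, read along the gene only, was in 3 of the 37 (8.11%) and in 9.08% of all windows. The median GC content was 60.3% in the 37 and 52.3% in all.

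All 4 adhesion receptors of the L subfamily were tested. Adgrl1, Adgrl2 and Adgrl3 are the latrophilins, which bind teneurins and Flrt proteins on facing cells and were found as targets of the spider toxin latrotoxin. Adgrl1 stood at 120 and 121 CPM in neonates and 135 and 169 CPM in adults, a difference of -0.33 ± 0.10 on the log2 scale (adjusted p = 0.021). The adult replicates were unequal, and the difference was -0.51 without adult replicate 1 and -0.19 without adult replicate 2. Adgrl3 stood at 10.2 and 9.41 CPM in neonates and 15.4 and 16.6 CPM in adults, and its log2 fold change was -0.70 ± 0.14 (adjusted p = 0.0026). The adult values were the higher for both. Adgrl2 was nearly level, at 67.6 and 67.9 CPM against 67.0 and 67.2 CPM (log2 fold change 0.014 ± 0.081, adjusted p = 0.89). That value turned to -0.23 when libraries were scaled by their totals alone, a scaling that moved the median of all genes to -0.25.

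Known ligands and partners of adhesion receptors of every subfamily formed 1 list. Of 25 listed, 24 were found and 19 tested, with 4 called lower and none called higher, a median of -0.63, and 12 lower and 3 higher with no minimum fold change. Over all genes tested 13.2% were called lower, and 31.1% were lower and 31.2% higher with no minimum fold change. Among those called were Tenm4 (-2.51 ± 0.29), Flrt1 (-2.21 ± 0.26) and Tenm3 (-1.21 ± 0.12), whose products bind latrophilins across the cell gap. Tenm4 was at 1.46 and 1.08 CPM in neonates and 6.54 and 8.02 CPM in adults. Flrt1 was at 1.71 and 1.72 CPM in neonates and 7.17 and 8.72 CPM in adults. Neither overlapped between ages, and the adjusted p was 0.00010 for Tenm4 and 0.00011 for Flrt1. Tenm2 (-0.41 ± 0.11) and Flrt2 (-0.65 ± 0.20) were lower without reaching 2-fold, and Nrxn2 (0.12 ± 0.16, adjusted p = 0.54) did not pass.

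**Figure D3:**
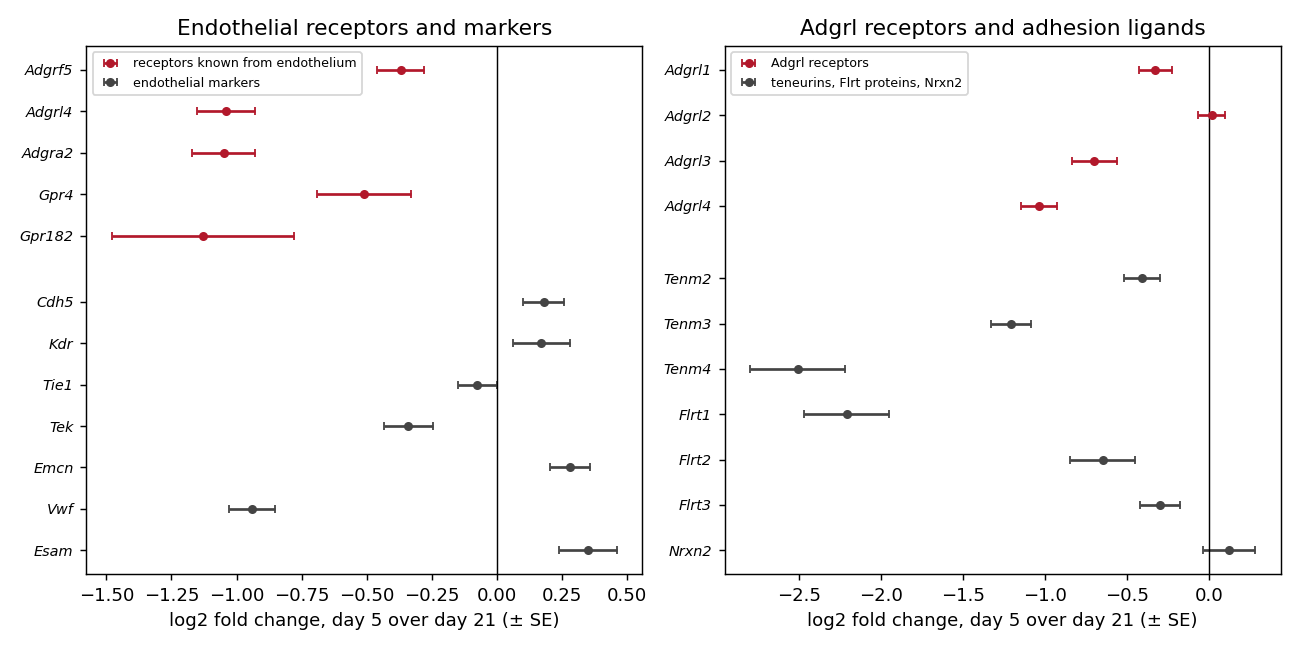
Log2 fold change, day 5 over day 21, with standard error (x axis, log2 units) of receptors known from endothelium beside endothelial markers (left) and of the Adgrl receptors beside teneurins, Flrt proteins and Nrxn2 (right). On the left the 5 receptors, grouped after their values had been seen, lie between -0.37 and -1.13 and 4 of the 7 markers lie right of zero, and on the right Tenm4 at -2.51 and Flrt1 at -2.21 lie farthest from zero.

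Receptors known from blood vessels include Adgrl4 and Adgra2, both called lower in neonates. Adgrl4, an endothelial receptor of the L subfamily linked to vessel sprouting, was at 41.9 and 50.2 CPM in neonates and 90.7 and 99.0 CPM in adults. Adgra2, which with Reck lets endothelial cells of the brain answer Wnt7 ligands, was at 19.5 and 20.5 CPM in neonates and 37.3 and 45.9 CPM in adults. Neither pair of groups overlapped, and both were called, at -1.04 ± 0.11 (adjusted p = 5.4e-05) and -1.05 ± 0.12 (adjusted p = 9.1e-05), close to the 2-fold limit. Adgrl4 fell short of that limit without neonate replicate 1 (-0.91), and Adgra2 without adult replicate 2 (-0.92). In the GRCr8 annotation Adgra2 partly overlaps Brf2, which did not pass (0.10 ± 0.15, adjusted p = 0.56). The division of reads between Adgra2 and Brf2 was not tested.

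Adgrf5, which is strong in lung epithelium and in endothelium and took the most reads of the family, was at 233 and 246 CPM in neonates and 290 and 331 CPM in adults. Its log2 fold change was -0.37 ± 0.091 (adjusted p = 0.0063), with both adult values the higher. Gpr182, an endothelial receptor that takes up chemokines, was at 1.18 and 0.944 CPM in neonates and 2.25 and 2.41 CPM in adults (log2 fold change -1.13 ± 0.35, adjusted p = 0.019). Its call was lost without either adult replicate, where the adjusted p was 0.061 and 0.085, and without neonate replicate 2, where the log2 fold change was -0.96.

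These 4 and Gpr4 were grouped after their values had been seen, so their shared direction is part of the choice and supports nothing. Together they took 304 and 326 CPM in neonates and 431 and 491 CPM in adults. Of 8 endothelial markers 7 were found, with none called and a median of 0.17. With no minimum fold change 2 were higher and 2 lower in neonates, beside 31.2% and 31.1% over all genes tested. The sum of the 7 was between 1100 and 1130 CPM in every library. Cdh5, the cadherin of endothelial junctions, was at 255 and 238 CPM in neonates and 219 and 216 CPM in adults (0.18 ± 0.079, adjusted p = 0.069). Vwf was at -0.94 ± 0.088 (adjusted p = 3.5e-05). The part of endothelial content in the receptor values was not tested. Among partners of Adgra2, Reck was at -0.35 ± 0.073 (adjusted p = 0.0028), and Wnt7a and Wnt7b had fewer than 3 counts in all libraries except for 28 counts of Wnt7b in neonate replicate 1.

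The B subfamily split between the ages. Adgrb2, a brain receptor of the BAI group, was at 53.7 and 49.7 CPM in neonates and 24.5 and 22.5 CPM in adults. Both neonatal values were the higher, and the log2 fold change was 1.14 ± 0.10 (adjusted p = 2.2e-05). With libraries scaled by their totals alone it was 0.89, still positive but under 2-fold. Adgrb3, which binds C1q-like proteins at synapses, was instead at 18.9 and 21.0 CPM in neonates and 32.0 and 33.9 CPM in adults (-0.72 ± 0.10, adjusted p = 0.00033). Of its ligands, C1ql1 was at 0.40 ± 0.15 (adjusted p = 0.048), C1ql3 at -0.80 ± 0.42 (adjusted p = 0.12), and C1ql2 and C1ql4 had no count in any library.

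Adgrg2, known best from the ducts of the male reproductive tract, had the largest positive value of the family and the widest spread. It was at 16.9 CPM in the first neonatal library and 2.36 CPM in the second, and at 1.10 and 1.18 CPM in the adults. The neonatal libraries did not overlap the adult libraries, but replicate 1 alone held most of the difference. The log2 fold change was 3.07 ± 0.75 (adjusted p = 0.0062), and without neonate replicate 1 it was 1.06 (adjusted p = 0.025). With limma-voom it was 2.45 and no longer passed (adjusted p = 0.060). Parathyroid genes had the same order of libraries: Gcm2, the parathyroid master regulator, was at 22.1 and 3.03 CPM in neonates with no count in adults, and Casr, the calcium-sensing receptor, at 1.18 and 0.333 CPM against 0.0245 and 0.0503 CPM. With Pth these are all 3 parathyroid markers, summing to 1792 and 211 CPM in neonates and at most 0.0503 CPM in adults. Their part in the value of Adgrg2 was not tested.

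**Figure D4:**
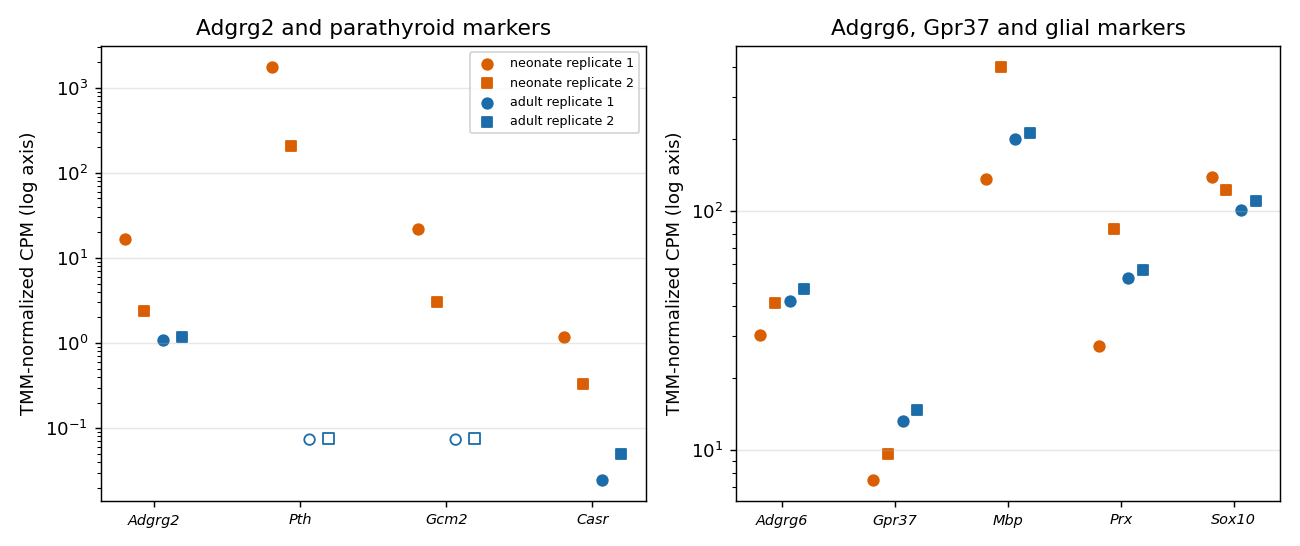
TMM-normalized CPM (log y axis) in each library of Adgrg2 beside the parathyroid markers Pth, Gcm2 and Casr (left) and of Adgrg6 and Gpr37 beside the glial genes Mbp, Prx and Sox10 (right); orange marks are neonates, blue marks adults, circles replicate 1, squares replicate 2, and open marks stand for no count, drawn at the floor of 3 counts. On the left neonate replicate 1 is the highest library for every gene, and on the right it is the lowest for Adgrg6, Gpr37, Mbp and Prx but not for Sox10.

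Other G subfamily receptors are tied to glia and blood cells. Adgrg1, which binds collagen III and acts in cortical development and in glial precursors, was at 41.6 and 41.1 CPM in neonates and 68.0 and 66.2 CPM in adults (-0.70 ± 0.088, adjusted p = 0.00016). Its replicates were close and the adult values higher. Its ligand Col3a1 was at -0.30 ± 0.13 (adjusted p = 0.071) and its partner Tgm2 at -0.74 ± 0.078 (adjusted p = 6.3e-05). Adgrg6, needed by Schwann cells to myelinate, was at 30.2 and 41.2 CPM in neonates and 41.9 and 47.3 CPM in adults. Neonate replicate 1 was the lowest library, as it was for Mbp, myelin basic protein, at 136 CPM there and 401, 199 and 211 CPM in the others. Adgrg6 did not pass the test (-0.32 ± 0.14, adjusted p = 0.077).

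Gpr37, a receptor of myelinating glia, was at 7.50 and 9.69 CPM in neonates and 13.2 and 14.7 CPM in adults, and was lower in neonates (-0.70 ± 0.18, adjusted p = 0.0084). Its relative Gpr37l1, whose symbol is outside the pattern used, was at 28.4 and 31.4 CPM in neonates and 71.8 and 71.7 CPM in adults (-1.26 ± 0.10, adjusted p = 1.2e-05). Of the 6 myelin markers none was called and 1 was lower with no minimum fold change, with a median of -0.12. Of 7 sustentacular and Schwann cell markers tested, 1 was called lower, Gfap at -1.96 ± 0.19 (adjusted p = 3.8e-05), and none higher. With no minimum fold change 3 of the 7 were lower and 1 higher, with a median of -0.26, beside 31.1% lower and 31.2% higher over all genes tested. The part of myelin or glial content in the values of Adgrg6 and Gpr37 was not tested.

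Adgrv1, the very large receptor that links sensory hair bundles, was at 4.35 and 6.80 CPM in neonates and 10.2 and 9.95 CPM in adults (-0.85 ± 0.24, adjusted p = 0.014). Adgra3 did not pass (0.037 ± 0.10, adjusted p = 0.77), and neither did Adgrg3, a granulocyte receptor (-0.26 ± 0.33, adjusted p = 0.52). Adgrg7 has 2 entries in the table, of which 1 was tested, at 0.365 and 0.361 CPM in neonates and 1.57 and 1.18 CPM in adults. Its log2 fold change was -1.91 with an adjusted p of 0.0048. Both entries together held 13, 29, 64 and 91 counts in neonate replicates 1 and 2 and adult replicates 1 and 2. The call was lost without adult replicate 1, with an adjusted p of 0.057 over the same genes. The 3 Celsr genes, adhesion receptors of planar polarity outside the symbol pattern, had no call, with Celsr2 at 0.50 ± 0.10 and Celsr3 at 0.33 ± 0.089 higher in neonates.

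Receptors of white blood cells were few. Of 13 listed, 3 were tested and 3 had no count in any library. Gpr183, the oxysterol receptor that positions B cells, was at 0.618 and 0.972 CPM in neonates and 2.03 and 2.04 CPM in adults (-1.35 ± 0.39, adjusted p = 0.014). The ages did not overlap, but the call was lost without either adult replicate, with an adjusted p of 0.075 and 0.076 over the same genes. Gpr34, a microglial and macrophage receptor for lysophosphatidylserine, had a log2 fold change of -0.61 ± 0.39 (adjusted p = 0.20), and Gpr171 of -0.12 ± 0.40 (adjusted p = 0.81). In the GRCr8 annotation Gpr183 lies inside Ubac2, which did not pass (0.12 ± 0.10, adjusted p = 0.32).

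Adgre5, the leukocyte and smooth muscle receptor CD97, went the other way. It was at 93.0 and 96.5 CPM in neonates and 59.7 and 64.4 CPM in adults, with both neonatal values the higher (0.61 ± 0.084, adjusted p = 0.00026). Of its ligands, Cd55 was also higher in neonates (0.64 ± 0.23, adjusted p = 0.038) and Thy1 lower (-0.99 ± 0.10, adjusted p = 5.2e-05). Adgre5 holds Ddx39a within its bounds, an RNA helicase gene whose log2 fold change was 0.89 ± 0.089 (adjusted p = 4.9e-05), and the division of reads between them was not tested. Macrophage markers were mostly lower in neonates, 7 of 8 with no minimum fold change and 3 of 8 called, beside 31.1% and 13.2% over all genes tested. Their sum was 92.7 and 105 CPM in neonates and 175 and 169 CPM in adults. One of the 8 lymphocyte markers was tested. The part of these cells in the receptor values was not tested.

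Proton-sensing receptors are of interest in an organ that also answers to acid. Gpr4, found on endothelium and on chemosensory neurons of the brainstem, was at 8.26 and 7.77 CPM in neonates and 10.4 and 12.4 CPM in adults. Both adult values were the higher, with a log2 fold change of -0.51 ± 0.18 (adjusted p = 0.035). Gpr65 and Gpr132, which are known from white blood cells, were under the filter, with at most 35 and 22 counts in a library.

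Receptors that signal through Gs without a ligand were scarce. Gpr6 was at 1.97 and 1.83 CPM in neonates and 3.23 and 3.29 CPM in adults (-0.78 ± 0.30, adjusted p = 0.045), while Gpr3 had at most 14 counts and Gpr12 at most 1 count in a library. Of the SREB receptors, the most conserved orphans of the brain, Gpr85 was at 8.96 and 6.61 CPM in neonates and 6.05 and 4.57 CPM in adults (0.55 ± 0.25, adjusted p = 0.084). Gpr27 was under the filter, with 10 and 23 counts in neonates and 42 and 29 in adults, and Gpr173 had no count.

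Of 9 listed numbered proteins of the Golgi, lysosome or melanosome, 7 were tested. Of these, 1 was called lower and none higher, with a median of 0.10, beside 13.2% and 7.68% over all genes tested, so the number called is near the background. With no minimum fold change 1 was lower, 2 were higher and 4 did not pass, against 31.1% lower and 31.2% higher over all genes. Gpr107, Gpr108, Gpr180 and Gpr89b did not pass, with log2 fold changes of 0.078 ± 0.10, 0.10 ± 0.086, 0.20 ± 0.089 and -0.041 ± 0.10. Gpr155, a lysosomal cholesterol sensor, was at 32.2 and 33.1 CPM in neonates and 22.3 and 23.7 CPM in adults (0.50 ± 0.10, adjusted p = 0.0017). Gpr137, which acts at the lysosome, was at 25.3 and 21.9 CPM in neonates and 15.7 and 14.9 CPM in adults (0.62 ± 0.12, adjusted p = 0.0020). Its relative Gpr137b differed in the other direction, from 2.16 and 2.92 CPM in neonates to 6.46 and 6.43 CPM in adults (-1.34 ± 0.26, adjusted p = 0.0020). The groups of all 3 were separate, as were those of 83.0% of all genes tested.

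Among the remaining numbered receptors, Gpr146, a liver receptor that bears on blood cholesterol, had the largest fold change. It was at 2.81 and 1.86 CPM in neonates and 8.86 and 9.88 CPM in adults, a 4.01-fold difference (-2.00 ± 0.27, adjusted p = 0.00023). It lies inside C12h7orf50 in the GRCr8 annotation, and the division of reads between them was not tested. Gpr161, which sits in the primary cilium and restrains hedgehog signalling, was at 0.562 and 0.389 CPM in neonates and 1.32 and 1.78 CPM in adults (-1.70 ± 0.44, adjusted p = 0.0080). Neither overlapped between ages, and Gpr161 lost its call without adult replicate 2, with an adjusted p of 0.083 over the same genes. Gpr157 (-0.77 ± 0.35, adjusted p = 0.086), Gpr165 (-0.67 ± 0.36, adjusted p = 0.13) and Gpr160 (-0.030 ± 0.38, adjusted p = 0.95) did not pass.

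Of the G protein subunits these receptors act through, 25 of 28 listed were tested, with 1 called higher, 4 called lower and a median of -0.14, beside 7.68% called higher and 13.2% called lower over all genes tested, so that the number called is near the background. Gnaq, the alpha subunit that drives phospholipase C, was at 7.70 and 8.94 CPM in neonates and 22.7 and 26.5 CPM in adults (-1.57 ± 0.14, adjusted p = 3.3e-05). Its relative Gna11 (-1.08 ± 0.14) and the inhibitory subunit Gnai1 (-1.19 ± 0.11) were lower as well, besides Gnb5. Gng4, a gamma subunit, was the 1 higher in neonates (1.53 ± 0.31, adjusted p = 0.0026). Among 7 receptor kinases and arrestins, which switch active receptors off, Grk3 was at 5.45 and 5.69 CPM in neonates and 26.3 and 25.9 CPM in adults (-2.23 ± 0.13, adjusted p = 4.2e-06). Grk4 was higher in neonates, at 10.6 and 12.6 CPM against 5.12 and 5.76 CPM (1.09 ± 0.20, adjusted p = 0.0013). The other 5 were not called.

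The 49 entries that did not pass the filter were read little or not at all. Of these, 12 had no count in any library, 6 had at most 3 counts in every library, and 31 had more than 3 counts in some library. With no count were Gpr39, Gpr62, Gpr35, Gpr142, Gpr119, Gpr101, Gpr179, Gpr33, Gpr82, Gpr26, Adgrg4 and Gpr173, for which no count allows up to 0.0734 to 0.0843 CPM by library. When all genes with a count were tested, 14 of 85 receptors were called lower in neonates, beside 1975 of 19405 genes. One of those added was Gpr55 (adjusted p = 0.035), with 1 and 0 counts in neonates and 9 and 21 in adults. The other was Gpr65 (adjusted p = 0.038), with 4 and 1 against 14 and 35. In the GRCr8 annotation Gpr65 partly overlaps Galc, which was itself called lower in neonates (-1.53 ± 0.27, adjusted p = 0.0011). The division of reads between them was not tested.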

How the data were processed

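CBs of day 5 and day 21 rats were sequenced in bulk after poly A+ selection. The authors deposited estimated counts per gene, not normalized, from trimmed reads mapped with STAR and quantified with Salmon 1.5.2 on Rnor_6.0. Strand settings are not given in the sources used here. Groups came from the sample titles.

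Estimated counts were rounded (4 receptor entries had fractions). Non-coding genes (641, by symbol) were dropped, as were those that did not reach 1 CPM in 2 libraries. The ages were then compared in edgeR 4.0.16 (R 4.3.3) by the quasi-likelihood test with TMM factors and no covariate, with Benjamini-Hochberg adjustment over all 13838 genes. CPM values are TMM-normalized, and SE was derived from the log2 fold change and its F statistic. Alternatives were limma 3.58.1 (voom), DESeq2 1.42.0, other scalings and filters, a replicate block and each library left out in turn. On simulated data, 200 of 200 genes changed 4-fold were recovered and 3 unchanged genes were called. The changed genes were drawn only from those above a minimum expected count, and the spread of each gene followed its abundance alone. The simulation therefore does not cover differences near 2-fold, receptors with few counts, or receptors with unusually unequal replicates such as Adgrg2.

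Receptors and lists were chosen with earlier results of these data known. Genes named are the called receptors, the 10 with most counts, the proton-sensing, SREB and constitutively active members, called ligands and transducers, and others that illustrate a list, which were chosen after their values were seen. Some genes are counted in the totals but not reported here by name. Levels per transcript length were not used here, since no lengths were given. Overlaps and promoter windows come from RefSeq on GRCr8, another assembly than that of the counts.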

Additional observations from a re-analysis of the deposited data

How the results depend on the processing

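Scaling by library totals alone moved the median of all genes to -0.25, that of the receptors to -0.76, the number called higher to 1 and the calls over all genes from 1063 higher and 1821 lower to 704 and 2548. It turned Adgrl2 to -0.23, Gpr107 to -0.17, Gpr108 to -0.14, Gpr180 to -0.05 and Adgra3 to -0.21, and no filter turned Adgrl2 to -0.01. None of these was called. The 14 called receptors kept their direction under every alternative that gave a value. The number called higher was 1 with limma-voom and 6 with no minimum fold change, where 25 were lower. With a library left out, 5 to 12 were lower and 2 higher, with medians from -0.59 to -0.40 (-0.57 without neonate replicate 2). Keeping the same genes, an alternative added after the data were seen, gave 9 without adult replicate 1 and 7 without adult replicate 2. The age left with 1 library was assumed to vary like the other. Leaving out a library also gave both signs for receptors not called: Adgrl2 (down to -0.02 and -0.01), Gpr107 (-0.03 and -0.02 to 0.19), Gpr89b (up to 0.03), Gpr19 (-0.37 to 0.11 and 0.12), Adgrg3 (-0.82 to 0.16 and 0.17), Gpr160 (-0.13 to 0.02, 0.05, 0.07 and 0.08) and Gpr171 (-0.34 to 0.07, 0.09 and 0.10). The causes were not tested, apart from the filter, which left 42 receptors tested without an adult library. With the replicate number as a block, 2 were higher and 12 lower with a median of -0.51. Deviations of same-numbered libraries had a correlation of -0.0156 over the genes tested. With 2 libraries per age this rests on 1 difference between replicates at each age, so it cannot show whether the numbers mark a pairing. Receptors near 1 CPM rest on few counts, with SE of 0.35 to 0.61 from Gpr182 to Gpr63, which limits what can be seen there.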
